A study of Mus musculus with 29 samples.

Results

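The 10 genes described here mark T lymphocytes and were followed across all 8 groups of a mouse lung microarray series: the CD3 chains Cd3d, Cd3e and Cd3g, the zeta chain Cd247, the coreceptors Cd4 and Cd8a, the surface proteins Cd5 and Cd6, and the kinases Lck and Zap70. They were 10 of the 15350 genes tested, and were chosen by name. Every probe whose accession matched one of them was taken from the scanner files, which gave 15 probes, of which 14 passed the filter on dim probes and represented all 10 genes. Total lung RNA came from C57BL/6 mice aged 6 to 8 weeks, without Klf15 (Klf15-/-, here KO) or wild type (WT), given dexamethasone (dex, 2.5 mg/kg) or saline and sampled 8 or 4 h later. The Klf15 protein is a transcription factor whose gene is a target of the glucocorticoid receptor, and dexamethasone is a synthetic ligand of that receptor. The 29 arrays comprise 4 KO dex, 4 KO saline, 3 WT dex and 3 WT saline arrays at 8 h, and 4 KO dex, 3 KO saline, 4 WT dex and 4 WT saline arrays at 4 h. The labels speak of biologic replicates and name no promoter, Cre or other detail of how the KO mice were made. The title of the series names a feed forward circuit of the receptor and Klf15, and the design compares its genes across treatment, genotype and time.

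A T cell reads antigen with a receptor whose antigen-binding chains carry no signalling motif of their own. The CD3 chains and the zeta chain supply those motifs. Lck, brought close by the coreceptors CD4 or CD8, phosphorylates them, and Zap70 then docks on the phosphorylated motifs and passes the signal on. CD5 and CD6 are scavenger-receptor cysteine-rich proteins that tune this signal. Glucocorticoids are known to kill immature and resting lymphocytes and to move lymphocytes out of the blood, and the lung holds T cells both in its vessels and in its tissue.

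Cd3g and Cd3d lie head to head on chromosome 9, with RefSeq starts 1355 bases apart, and Cd3e starts 27825 bases from Cd3d. The promoters of these 3 neighbours are printed because Cd3d and Cd3g fell under dex while the Cd3e probe was not called, and those of Cd247 and Cd8a because their changes were the lowest of the 10 genes at 8 h. Each runs from 250 bases before to 50 bases after the RefSeq start (GRCm38.p6), 5′ to 3′ on the gene's strand, and 8 of the 10 genes had one in the table. Capitals mark every match, on either strand, to the RUNX core TGTGGT, the E-box CAGNTG, the ETS core GGAAG, the GATA site AGATAA or the glucocorticoid receptor palindrome (GNACA, any 3 bases, then TGTNC), and matches of different motifs may touch or overlap.
Cd3d, chr9:44981536-44981835, plus strand: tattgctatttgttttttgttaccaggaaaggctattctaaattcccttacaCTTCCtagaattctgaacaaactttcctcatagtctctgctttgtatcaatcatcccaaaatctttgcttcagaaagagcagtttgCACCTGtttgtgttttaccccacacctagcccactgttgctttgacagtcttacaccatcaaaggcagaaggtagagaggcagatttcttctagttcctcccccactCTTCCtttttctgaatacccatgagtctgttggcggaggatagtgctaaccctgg
Cd3g, chr9:44980382-44980681, minus strand: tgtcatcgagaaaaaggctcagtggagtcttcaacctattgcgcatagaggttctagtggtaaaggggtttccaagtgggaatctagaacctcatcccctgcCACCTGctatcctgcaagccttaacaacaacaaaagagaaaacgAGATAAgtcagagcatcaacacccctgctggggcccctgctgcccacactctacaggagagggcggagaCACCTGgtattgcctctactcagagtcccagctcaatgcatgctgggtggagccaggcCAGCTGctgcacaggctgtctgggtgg
Cd3e, chr9:45009562-45009861, minus strand: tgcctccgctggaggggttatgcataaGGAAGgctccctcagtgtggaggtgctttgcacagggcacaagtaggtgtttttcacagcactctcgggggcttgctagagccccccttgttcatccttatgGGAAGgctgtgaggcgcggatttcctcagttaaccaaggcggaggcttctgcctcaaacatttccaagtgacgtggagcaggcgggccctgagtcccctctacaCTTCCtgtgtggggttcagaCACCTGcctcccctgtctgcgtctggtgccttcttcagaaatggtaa
Cd247, chr1:165788431-165788730, plus strand: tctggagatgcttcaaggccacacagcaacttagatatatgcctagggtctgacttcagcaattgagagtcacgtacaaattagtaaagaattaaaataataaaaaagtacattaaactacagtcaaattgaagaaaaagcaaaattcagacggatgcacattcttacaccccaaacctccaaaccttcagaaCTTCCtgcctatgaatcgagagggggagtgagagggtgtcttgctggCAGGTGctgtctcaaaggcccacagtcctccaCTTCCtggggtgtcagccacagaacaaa
Cd8a, chr6:71373177-71373476, plus strand: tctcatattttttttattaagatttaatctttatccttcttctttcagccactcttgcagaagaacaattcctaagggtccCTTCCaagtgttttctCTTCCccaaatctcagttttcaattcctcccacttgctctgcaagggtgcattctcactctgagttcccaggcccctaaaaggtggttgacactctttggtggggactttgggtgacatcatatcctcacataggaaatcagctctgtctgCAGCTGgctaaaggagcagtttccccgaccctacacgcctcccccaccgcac
An E-box lay in each of the 5 windows, as it did in 51.4% of the 32851 promoters of the table. The ETS core, found in 71.4% of all promoters, was present in the windows of Cd3d, Cd3e, Cd247 and Cd8a and not in that of Cd3g, which held the GATA letters (11.2% of all promoters). The RUNX core (16.8% of all) and the glucocorticoid receptor palindrome (0.475% of all) matched none of the 5. These matches describe letters in a window and no more.

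Several values of the whole data set frame the results. Between 75.5 and 88.5% of spots were well above background on each array, and precision was set by the 3 or 4 arrays per group. Klf15 itself, as the check of the genotype labels, lay between -0.89 and 1.37 on the log2 relative scale on KO arrays and between 1.95 and 4.29 on WT arrays and did not overlap. Under dex the Klf15 signal rose by 0.92 and 1.92 in KO lungs at 8 and 4 h, and by 0.79 and 1.93 in WT lungs (limma, adjusted p of 0.0184 or below). Whether the Klf15 probe lies inside the deleted sequence was not known here. The lung epithelial genes Sftpc, Sftpb, Scgb1a1 and Ager had signals of more than 20 times the array's 75th percentile on all 29 arrays. The thymocyte genes Rag1 and Rag2 were well above background on 2 and 0 of 29 arrays, Ptcra on 26 and Dntt, at 2.69 to 18.1% relative signal, on all 29. The 29 arrays sat on 8 slides, numbered here 1 to 8, each of which held dex and saline arrays. The 7 KO saline arrays stand apart in the ratio of bright to dim probes of the same gene: averaged over 2632 genes and centred on each gene's mean, this log2 ratio was -0.369 to -0.115 on them and -0.086 to 0.289 on the 22 other arrays.

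Signal is given below as relative signal, a probe's background-corrected intensity in percent of its array's 75th percentile, and changes as log2 differences of group means. A gene is called when limma's test, fitted over all 8 groups, gave a Benjamini-Hochberg adjusted p under 0.05 across the 15350 genes. In bulk RNA, fewer T cells and less RNA per T cell cannot be told apart.

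Dexamethasone lowered the signal of most of these genes in both genotypes and at both times. Of the 10, the number called lower was 8 in KO lungs at 8 h, 7 in KO lungs at 4 h, 8 in WT lungs at 8 h and 8 in WT lungs at 4 h, and none was called higher. Across all genes tested, 17.7, 17.8, 14.3 and 22.2% were called lower in the same 4 comparisons, and 24.9, 24.7, 9.22 and 14.4% higher. The median change of the 10 was -1.46, -0.74, -1.69 and -1.60, beside 0.10, 0.05, -0.06 and -0.03 for all genes tested. Cd3e and Cd4 were called in none of the 4 comparisons, and Cd6 was not called in KO lungs at 4 h. The KO saline arrays, which stand apart in the ratio of bright to dim probes, are the controls of both KO comparisons, and their part in these was not tested. The WT counts were 8 and 8 in a fit without them.

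**Figure D1:**
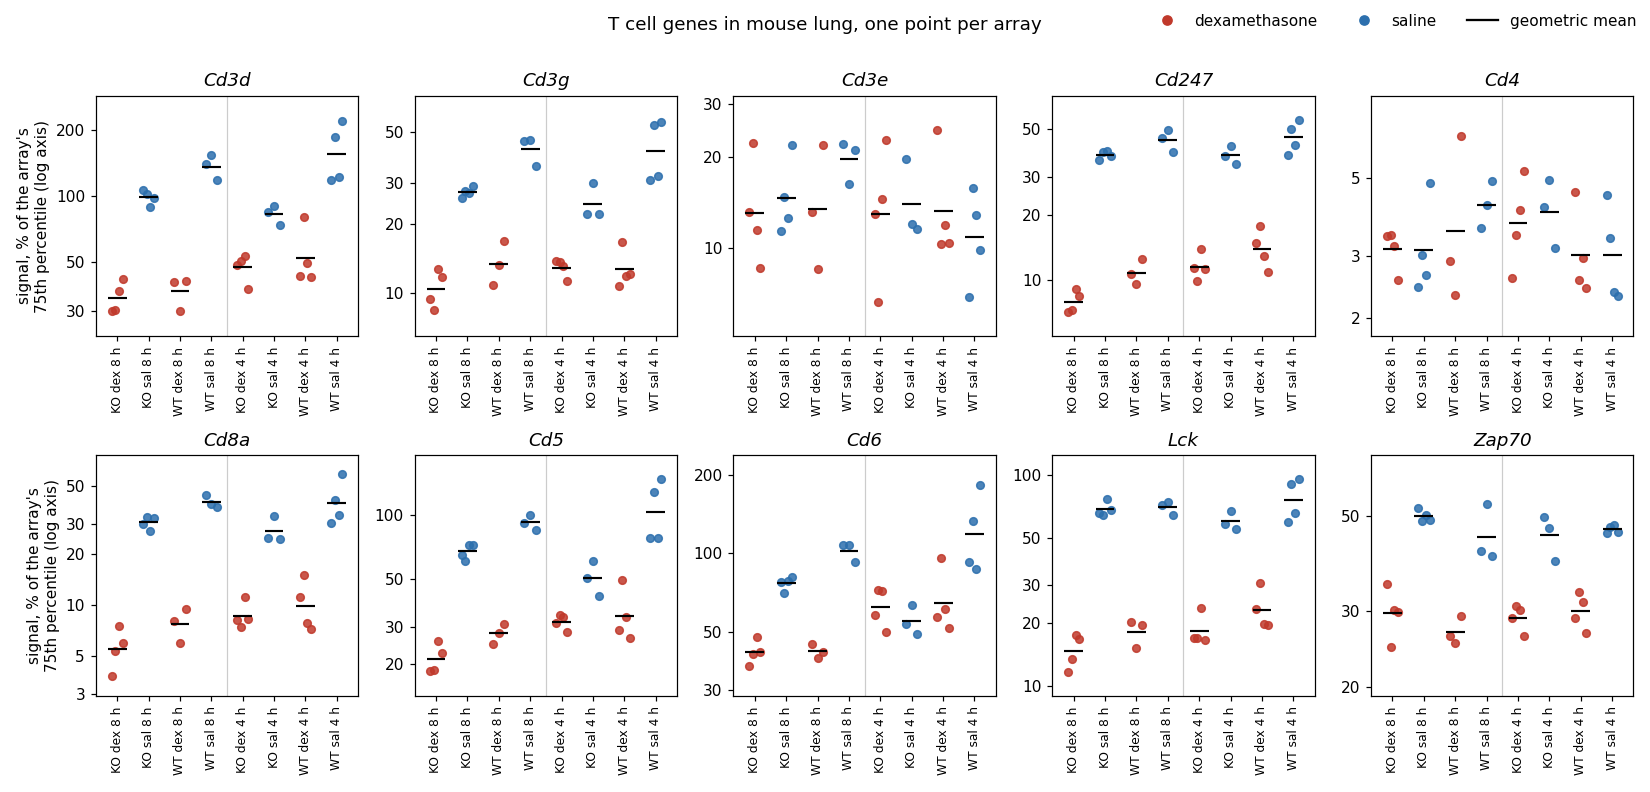
Relative signal (percent of the array's 75th percentile, log axis) of the 10 T cell genes on each of the 29 arrays, by genotype, treatment and time, with the geometric mean of each group as a line. For Cd3d, Cd3g, Cd247, Cd8a, Cd5, Lck and Zap70 every dex array lies below every saline array of the same genotype and time, while Cd3e and Cd4 overlap throughout.

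Cd3d and Cd3g encode the delta and gamma chains of CD3, each of which pairs with the epsilon chain in the receptor. At 8 h, Cd3d had a relative signal of 29.9, 30.5, 37.02 and 42.2% in KO dex lungs, against 107.3, 103, 89.9 and 97.9% in KO saline lungs. WT lungs at 8 h had 40.6, 30.05 and 41.15% under dex, against 140, 155 and 119% under saline. No dex array came near the lowest saline array at this time. At 4 h, Cd3d had 48.9, 50.85, 53.7 and 37.9% in KO dex lungs, against 84.8, 90.6 and 73.8% in KO saline lungs. WT lungs at 4 h had 43.4, 80.2, 49.6 and 42.9% under dex, where replicate 50 was the highest, against 119, 187, 123 and 221.5% under saline. The groups did not overlap at 4 h either. The log2 changes of Cd3d were -1.52 (SE 0.198, adjusted p = 1.9e-06) and -0.80 (SE 0.214, adjusted p = 0.00393) in KO lungs at 8 and 4 h, and -1.89 (SE 0.229, adjusted p = 2.34e-06) and -1.59 (SE 0.198, adjusted p = 9.03e-07) in WT lungs (limma).

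Cd3g followed the same course. Its relative signal was 8.39 to 12.7% in KO dex lungs, against 26.0 to 29.1% in KO saline lungs at 8 h, and 10.8 to 16.8% in WT dex lungs, against 35.7 to 46.4% in WT saline lungs. At 4 h it was 11.2 to 13.7% in KO dex lungs, against 22.0 to 30.1% in KO saline lungs, and 10.73 to 16.6% in WT dex lungs, against 31.0 to 55.6% in WT saline lungs. No pair of groups overlapped. The changes were -1.40 and -0.92 in KO lungs at 8 and 4 h, and -1.66 and -1.72 in WT lungs, with limma adjusted p between 1.44e-07 and 0.000793. By the distance between 8 centred group means, Cd3g held rank 9 among all genes in nearness to Cd3d and Cd5 rank 1, at a root mean square distance of 0.16 and 0.09 log2 units; this likeness to Cd3d was looked up after its values were seen.

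Cd3e, the epsilon chain that completes both CD3 pairs, did not follow Cd3d and Cd3g on its only probe. At 8 h its relative signal was 13.1, 22.3, 11.5 and 8.60% in KO dex lungs, against 11.4, 14.7, 12.5 and 21.9% in KO saline lungs. WT lungs at 8 h had 13.2, 8.50 and 21.9% under dex, against 22.1, 16.2 and 21.1% under saline. Each pair of groups overlapped, and in most groups some arrays lay far from the others. The 4 h signals were 13.0, 6.64, 14.5 and 22.7% in KO dex lungs, against 19.7, 11.98 and 11.5% in KO saline lungs. In WT lungs at 4 h it was 24.5, 10.3, 11.9 and 10.4% under dex, against 6.89, 15.8, 12.8 and 9.85% under saline. The changes were -0.17 (SE 0.377, adjusted p = 0.748) and -0.10 (SE 0.407, adjusted p = 0.871) in KO lungs at 8 and 4 h, and -0.54 (SE 0.436, adjusted p = 0.421) and 0.30 (SE 0.377, adjusted p = 0.588) in WT lungs (limma), none of them called. The SD within groups was 0.553 log2 units, the highest of the 10 genes, against 0.288 for Cd3d and 0.274 for Cd3g.

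The spread of Cd3e followed the array slide. On slides 1 and 2 its relative signal was 21.1 to 22.7% and 19.7 to 24.5% on 4 arrays each, and on the 6 other slides no array passed 16.2%. The pair of arrays on slide 8, a KO dex and a WT saline array, had 6.64 and 6.89%. Slide accounted for 95.1% of the variation of Cd3e left within groups, against a median of 59% over 14917 genes with no missing value, of which 2.42% had a share at least as high. With slide as a block, the within-group SD of Cd3e was 0.149. Its changes were then -0.29 (adjusted p = 0.0358) and 0.10 (0.539) in KO lungs at 8 and 4 h, and -0.15 (0.442) and -0.04 (0.804) in WT lungs (limma), so that Cd3e was called lower in KO lungs at 8 h. On single slides that held both groups, the Cd3e change was -0.41 and -0.36 in KO lungs at 8 h, 0.33 in KO lungs at 4 h, 0.06 in WT lungs at 8 h, and 0.07 and -0.11 in WT lungs at 4 h. Cd3d, on the same slides, kept dex arrays below saline arrays on each.

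**Figure D2:**
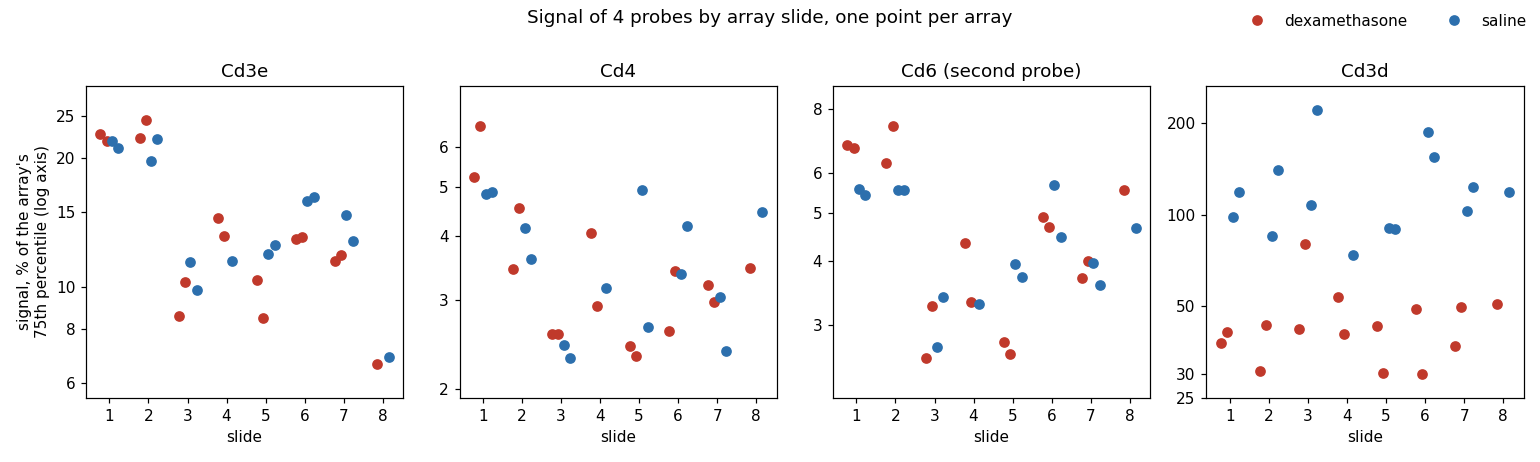
Relative signal (percent of the array's 75th percentile, log axis) of the Cd3e, Cd4, second Cd6 and Cd3d probes by slide, 1 point per array, dex arrays left of saline arrays on each slide. Cd3e was between 19.7 and 24.5% on all 8 arrays of slides 1 and 2 and at most 16.2% on the other 21, whatever the treatment, whereas Cd3d was split by treatment on every slide.

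Cd4, the coreceptor of helper T cells, was dim and was called in no comparison. Its probe was printed on 10 spots per array and was well above background on all 29 arrays. At 8 h its relative signal was 3.42, 3.45, 3.21 and 2.57% in KO dex lungs, against 2.445, 3.03, 2.65 and 4.855% in KO saline lungs. In WT lungs at 8 h it was 2.91, 2.32 and 6.59% under dex, against 3.61, 4.18 and 4.90% under saline. At 4 h it was 2.61 to 5.24% in KO dex lungs, against 3.17 to 4.93% in KO saline lungs, and 2.44 to 4.55% in WT dex lungs, against 2.31 to 4.47% in WT saline lungs. All pairs of groups overlapped. The changes were 0.01 (SE 0.296, adjusted p = 0.986) and -0.11 (SE 0.319, adjusted p = 0.82) in KO lungs at 8 and 4 h, and -0.24 (SE 0.341, adjusted p = 0.675) and 0.01 (SE 0.296, adjusted p = 0.989) in WT lungs (limma). Slide accounted for 68.8% of its variation within groups, and with slide as a block it was still called in none of the 4 comparisons. CD4 is also carried by other leukocytes of the mouse, such as subsets of dendritic cells.

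Cd8a, the coreceptor of cytotoxic T cells, had the lowest change of the 10 genes in 3 of the 4 comparisons. At 8 h its relative signal was 3.82, 5.39, 7.59 and 5.99% in KO dex lungs, against 30.2, 32.8, 27.45 and 32.5% in KO saline lungs. In WT lungs at 8 h it was 8.07, 5.99 and 9.52% under dex, against 44.2, 39.2 and 37.8% under saline. The highest dex array was thus well below the lowest saline array in both genotypes. At 4 h Cd8a had 8.16, 7.49, 11.2 and 8.24% in KO dex lungs, against 24.8, 33.5 and 24.4% in KO saline lungs. WT lungs at 4 h had 11.1, 15.02, 7.91 and 7.23% under dex, against 30.4, 41.6, 33.8 and 58.8% under saline. The groups did not overlap at 4 h either. The changes were -2.47 (SE 0.23, adjusted p = 1.67e-08) and -1.65 (SE 0.249, adjusted p = 1.1e-05) in KO lungs at 8 and 4 h, and -2.38 (SE 0.266, adjusted p = 8.59e-07) and -2.01 (SE 0.23, adjusted p = 2.64e-07) in WT lungs (limma). Cd8a is also carried by a subset of dendritic cells.

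Cd247, the zeta chain that carries most of the receptor's signalling motifs, fell to a like degree. At 8 h its relative signal was 7.11, 7.22, 9.03 and 8.38% in KO dex lungs, against 35.7, 39.1, 39.5 and 37.2% in KO saline lungs. In WT lungs at 8 h it was 10.64, 9.53 and 12.4% under dex, against 44.99, 49.4 and 38.9% under saline. Arrays of 1 group lay close together, and no groups overlapped. The 4 h signals were 9.82 to 13.9% in KO dex lungs, against 34.3 to 41.7% in KO saline lungs, and 10.8 to 17.8% in WT dex lungs, against 37.5 to 54.6% in WT saline lungs. The changes were -2.26 (SE 0.14, adjusted p = 2.23e-11) and -1.72 (SE 0.152, adjusted p = 4.93e-09) in KO lungs at 8 and 4 h, and -2.03 (SE 0.162, adjusted p = 6.43e-09) and -1.72 (SE 0.14, adjusted p = 1.41e-09) in WT lungs (limma). NK cells also carry the zeta chain.

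Both kinases were called lower in all 4 comparisons, with larger changes for Lck than for Zap70. Lck, the kinase bound to the coreceptors, had a relative signal of 11.7 to 17.4% in KO dex lungs, against 64.5 to 77.2% in KO saline lungs at 8 h, and of 16.5 to 23.4% in KO dex lungs, against 55.3 to 67.6% in KO saline lungs at 4 h. In WT lungs it was 15.2 to 20.05% under dex, against 64.4 to 74.6% under saline at 8 h, and 19.6 to 30.9% under dex, against 59.6 to 95.5% under saline at 4 h. Its changes were -2.24 and -1.72 in KO lungs at 8 and 4 h, and -1.96 and -1.74 in WT lungs, with adjusted p between 4.57e-10 and 1.38e-07 (limma). Zap70, the kinase that docks on the phosphorylated chains and is also carried by NK cells, was 24.8 to 34.7% in KO dex lungs, against 48.5 to 52.2% in KO saline lungs at 8 h, and 25.3 to 29.2% in WT dex lungs, against 40.3 to 53.2% in WT saline lungs. At 4 h Zap70 was 26.3 to 30.8% in KO dex lungs, against 39.3 to 49.7% in KO saline lungs, and 26.6 to 33.2% in WT dex lungs, against 45.5 to 47.6% in WT saline lungs. No pair of groups overlapped for either kinase. The Zap70 changes were -0.75 and -0.64 in KO lungs at 8 and 4 h, and -0.73 and -0.63 in WT lungs, with adjusted p between 2.11e-06 and 5.11e-05 (limma). Its within-group SD of 0.138 log2 units was the lowest of the 10 genes.

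Cd5, a surface protein that dampens receptor signalling and is also carried by a subset of B cells, was called lower in all 4 comparisons. At 8 h its relative signal was 18.5 to 25.7% in KO dex lungs, against 60.8 to 72.4% in KO saline lungs, and 24.96 to 30.9% in WT dex lungs, against 85.2 to 100.1% in WT saline lungs. At 4 h it was 28.3 to 33.9% in KO dex lungs, against 41.8 to 60.8% in KO saline lungs, and 26.5 to 49.8% in WT dex lungs, against 77.9 to 146% in WT saline lungs. No pair of groups overlapped, and the gap was narrowest in KO lungs at 4 h. The changes were -1.67 (SE 0.191, adjusted p = 3.43e-07) and -0.67 (SE 0.207, adjusted p = 0.011) in KO lungs at 8 and 4 h, and -1.72 (SE 0.221, adjusted p = 5.04e-06) and -1.62 (SE 0.191, adjusted p = 4.22e-07) in WT lungs (limma). Without KO saline replicate 43, the KO change at 4 h was -0.54 and no longer called (adjusted p = 0.0755).

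Cd6, a relative of CD5 that binds ALCAM, was called lower in the other 3 comparisons and not in KO lungs at 4 h. There its main probe had 57.97, 72.6, 71.7 and 50.1% in dex lungs, against 53.8, 63.6 and 49.2% in saline lungs, and the groups overlapped. In WT lungs at 4 h it had 57.1, 96.2, 61.02 and 51.8% under dex, against 92.2, 133, 87.0 and 183% under saline, where dex replicate 50 lay above saline replicates 33 and 35. At 8 h it had 37.01, 41.15, 47.97 and 41.9% in KO dex lungs, against 77.8, 70.6, 78.5 and 81.1% in KO saline lungs. In WT lungs at 8 h it had 44.9, 39.7 and 41.85% under dex, against 108, 107.2 and 93.0% under saline. At 8 h neither pair of groups overlapped. The changes were -0.88 (SE 0.192, adjusted p = 0.000745) and 0.18 (SE 0.207, adjusted p = 0.54) in KO lungs at 8 and 4 h, and -1.28 (SE 0.221, adjusted p = 0.000157) and -0.87 (SE 0.192, adjusted p = 0.000863) in WT lungs (limma). In a fit of the WT 4 h groups alone, its adjusted p was 0.0532.

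**Figure D3:**
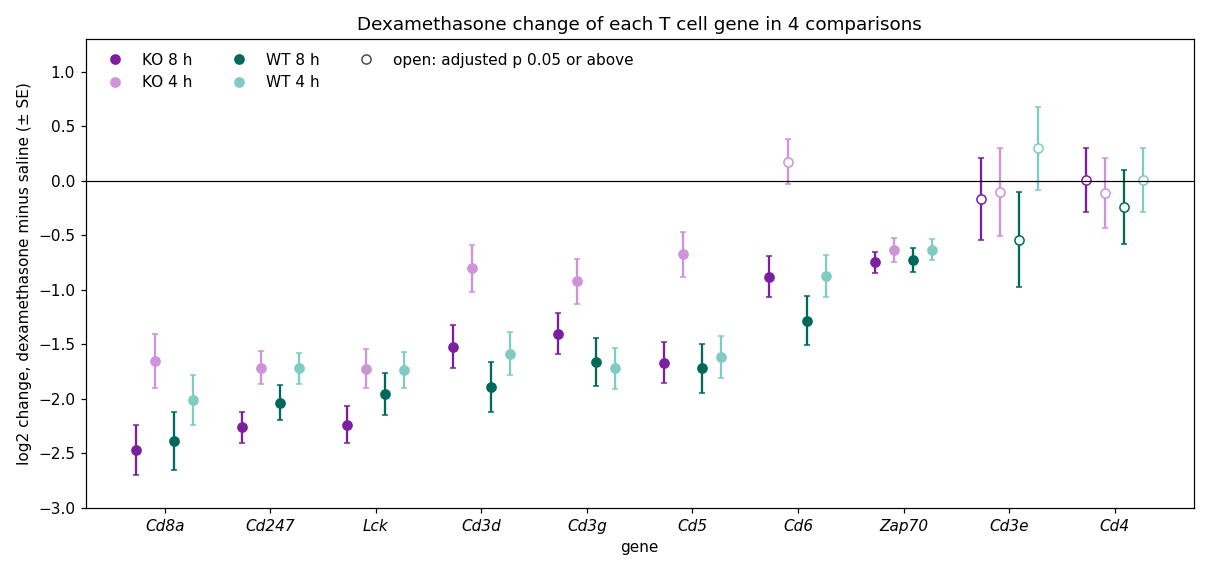
Log2 change (dex minus saline, ± SE from limma) of the 10 T cell genes in KO and WT lungs at 8 and 4 h; filled points passed an adjusted p of 0.05. Cd8a, Cd247 and Lck lie lowest, Zap70 stays between -0.75 and -0.63, and Cd3e and Cd4 scatter around 0 with wider errors.

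In terms of arrays that do not overlap, every dex array lay below every saline array of the same genotype and time for 8 of the 10 genes in KO lungs at 8 h, 7 in KO lungs at 4 h, 8 in WT lungs at 8 h and 7 in WT lungs at 4 h. The same held for 14.7, 19.8, 22.2 and 20.2% of all genes with a value on every array of the groups. On each of the 6 pairings of a comparison with a slide that held both groups, each of the genes called lower was also lower on that slide, and the median change of the 10 within a slide was between -1.51 and -0.42. The slide with -0.42 was that of KO lungs at 4 h.

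Where a gene had several kept probes, all were called lower in the 4 comparisons for Cd247 and Cd8a, and not for Cd6. The Cd8a probes differed in the size of their changes. Of the 14 kept probes, 11 were called lower in KO lungs at 8 h, 10 in KO lungs at 4 h, 11 in WT lungs at 8 h and 11 in WT lungs at 4 h, against 16.6, 17, 10.2 and 17.6% of the 33935 kept probes. The second Cd247 probe, matched to another transcript accession, changed by -2.08 and -1.57 in KO lungs at 8 and 4 h, and by -1.76 and -2.08 in WT lungs. Another Cd247 probe was well above background on 1 of 29 arrays and was left out. The other Cd8a probes changed by -2.11 and -1.51 in KO lungs at 8 h, -1.63 and -0.87 in KO lungs at 4 h, -2.02 and -1.84 in WT lungs at 8 h, and -1.85 and -1.58 in WT lungs at 4 h. All of these were called lower, and the Cd8a probe with the smaller changes was printed on 10 spots. The second Cd6 probe, with a relative signal of 2.58 to 7.43%, changed by 0.08 and 0.35 in KO lungs at 8 and 4 h, and by -0.40 and -0.06 in WT lungs, with adjusted p of 0.456 or above (limma). Slide accounted for 87.7% of its variation within groups, and with slide as a block its changes were -0.07 and 0.18 in KO lungs at 8 and 4 h, and 0.08 and -0.03 in WT lungs. The accessions of the Cd6 probes name different transcripts (NM_001037801 for the main probe, NM_009852 for the second). Their positions in the transcripts were not known here.

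**Figure D4:**
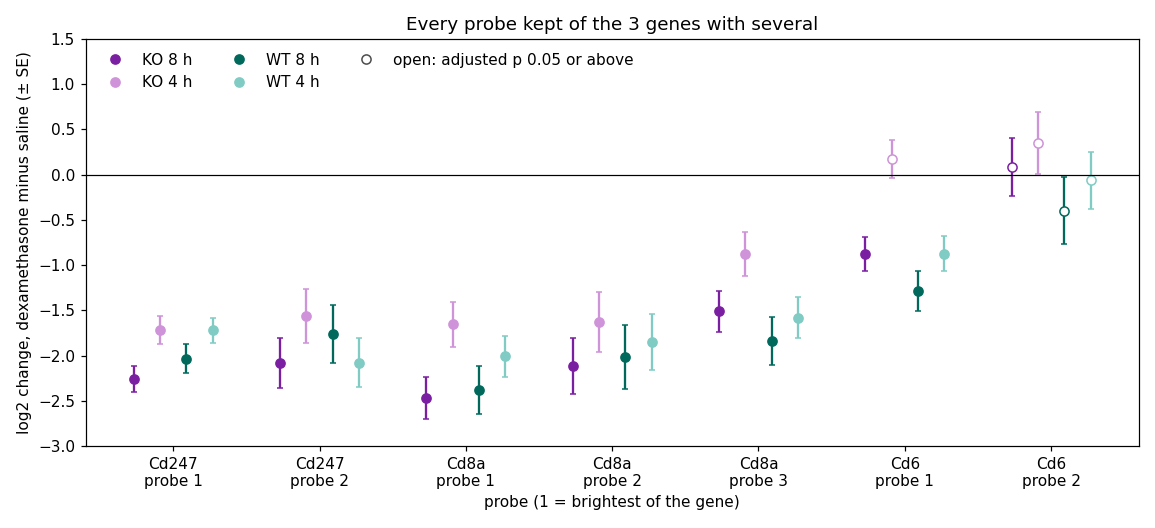
Log2 change (dex minus saline, ± SE from limma) of every kept probe of Cd247, Cd8a and Cd6 in KO and WT lungs at 8 and 4 h, with probe 1 the brightest of its gene and filled points past an adjusted p of 0.05. All Cd247 and Cd8a probes lie below 0, while the second Cd6 probe lies between -0.40 and 0.35.

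Measured on 1 probe each, the 10 genes did not change evenly. The range from the lowest to the highest change was 2.48 log2 units in KO lungs at 8 h, 1.90 in KO lungs at 4 h, 2.14 in WT lungs at 8 h and 2.30 in WT lungs at 4 h, and the SD over the 10 genes was 0.871, 0.698, 0.716 and 0.811. The mean SE of a single gene's change was 0.208, 0.224, 0.240 and 0.208 in the same comparisons. The highest change was that of Cd4, Cd6, Cd4 and Cd3e in turn, and the Cd3e and Cd4 signals varied with the slide. Probes of 1 gene differed too, as for Cd8a in KO lungs at 8 h (-2.47, -2.11 and -1.51). How much of the range lies in the probes was not tested. How evenly the genes of a cell type fall bears on whether cells were lost, but in bulk RNA an unequal fall cannot tell a change in the mix of cells from a change in RNA per cell.

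Set against the mean log2 signal of Cd3d, Cd3e and Cd3g on the same array, 5 of the 7 other genes differed in KO lungs at 8 h, 4 in KO lungs at 4 h, 5 in WT lungs at 8 h and 5 in WT lungs at 4 h (limma, adjusted p under 0.05), while 87.5, 55.4, 86.4 and 83.4% of all genes did. The mean change of the 3 chains was -1.03, -0.61, -1.36 and -1.004, so a gene that did not move can also be called here. On their main probes, Cd247, Cd8a and Lck fell further than the mean of the chains in all 4 comparisons, by between 0.59 and 1.44 log2 units. That mean includes the Cd3e probe, which was called in none of the 4, so it fell less than Cd3d and Cd3g did. Cd4 was higher relative to the chains in KO lungs at 8 h, WT lungs at 8 h and WT lungs at 4 h, by between 1.01 and 1.12.

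Because the Cd3e probe did not move with its partners, the comparison was repeated against the mean of Cd3d and Cd3g alone, a choice made after the values were seen. Against that mean, 93.4 and 67.4% of all genes were called higher in KO lungs at 8 and 4 h, and 90.7 and 94.2% in WT lungs, so a gene called higher here may simply not have moved. Called lower were 0.495 and 1.31% of all genes in KO lungs and 0.208 and 0.384% in WT lungs. Cd5 was then called in none of the 4 comparisons, at -0.21 and 0.19 in KO lungs at 8 and 4 h, and 0.05 and 0.04 in WT lungs, with adjusted p of 0.0832 or above (limma). On its main probe, Cd8a fell further in all 4 comparisons. Its values were -1.01 and -0.79 in KO lungs at 8 and 4 h, and -0.61 and -0.36 in WT lungs. In the same order, the dex change of the Cd8a probe with the smallest changes was -1.51, -0.87, -1.84 and -1.58. That was close to Cd3d (-1.52, -0.80, -1.89 and -1.59) and Cd3g (-1.40, -0.92, -1.66 and -1.72). The remaining Cd8a probe lay below both, at -2.11, -1.63, -2.02 and -1.85. Neither probe was tested against the mean of Cd3d and Cd3g. Relative to that mean, Cd247 and Lck fell further in KO lungs, at -0.80 and -0.77 at 8 h and -0.85 and -0.86 at 4 h. In WT lungs their values were between -0.26 and -0.07 and passed no test. That difference between genotypes was not itself tested. At 4 h Cd247 itself changed by -1.72 in both genotypes, and Lck by -1.72 in KO and -1.74 in WT lungs. Cd3d and Cd3g changed less in KO lungs (-0.80 and -0.92) than in WT lungs (-1.59 and -1.72) at that time. The KO saline arrays, with their low ratio of bright to dim probes, enter all KO values here, and their part was not tested. Cd6 was higher relative to the chains in all 4 comparisons, at 0.58 and 1.04 in KO lungs at 8 and 4 h, and 0.49 and 0.78 in WT lungs. Zap70 was higher in KO lungs at 8 h (0.71) and in WT lungs at 8 and 4 h (1.05 and 1.02).

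Within groups, some arrays had high or low signal for all of these genes at once. KO dex replicate 59 at 4 h lay above its group's mean for 10 of 10 genes, as did WT saline replicate 34 at 4 h. KO saline replicate 44 and WT dex replicate 52, both at 4 h, lay below it for all 10. Such arrays share RNA, labelling and scaling across the 10 genes, so these counts are a description of single arrays.

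By the same measure of distance, the genes whose 8 group means were nearest to those of Cd3e were Ngb, Acvr1b, Syngr4, Btnl9, Hdac4, Atxn1, Cercam and Gcsam, at 0.10 to 0.13 log2 units. In order of nearness to Cd3e over all 15350 genes, Cd4 held rank 70, Cd3g rank 14696 and Cd3d rank 14821. In order of nearness to Cd3d, Lck held rank 92, Cd247 rank 105, Cd8a rank 213, Cd6 rank 240 and Zap70 rank 622, while Cd3e held rank 5618 and Cd4 rank 6215. These distances rest on 8 group means each and are descriptions, with no test.

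Loss of Klf15 made no called difference to any of the 10 genes under dexamethasone, by limma. At 8 h none was called, against 1.9% of all genes called lower and 3.02% called higher. At an unadjusted p under 0.05 (limma), 1 of the 10 was lower, and the share of all genes at that threshold was not counted. Cd247 had 7.11, 7.22, 9.03 and 8.38% in KO dex lungs, against 10.64, 9.53 and 12.4% in WT dex lungs, a difference of -0.45 (SE 0.152, adjusted p = 0.0808), with no overlap between the groups, as held for 8.58% of all genes. At 4 h none was called and none passed an unadjusted p of 0.05, against 0.619% of all genes called lower and 0.28% called higher. For none did every KO array lie below every WT array, as it did for 2.07% of all genes, and the 10 differences lay between -0.33 and 0.29. The median difference was -0.24 at 8 h and -0.07 at 4 h, beside 0.04 for all genes at both times.

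Under saline, some of the genes were lower in KO lungs. At 4 h, 4 of 10 were called lower and none higher, against 18.6% of all genes called lower and 5.98% called higher: Cd3d at -0.92, Cd3g at -0.77, Cd5 at -1.03 and Cd6 at -1.10 (KO minus WT, adjusted p between 0.00107 and 0.00947, limma). For each of the 4, every KO saline array lay below every WT saline array, as it did for 25.3% of all genes. Cd247, Lck and Zap70 differed by -0.27, -0.34 and -0.05 and were not called. Cd8a was at -0.54 (adjusted p = 0.113), and Cd3e and Cd4 were at 0.37 and 0.41, also not called. The second Cd6 probe differed by -0.02. With slide as a block, Cd3g was at -0.59 and not called (adjusted p = 0.0897), nor was it in a fit of the groups compared alone (adjusted p = 0.0871), and no slide held both groups. At 8 h Cd3g alone was called, at -0.62 (SE 0.204, adjusted p = 0.0459, limma), against 7.88% of all genes called lower and 5.13% called higher. At an unadjusted p under 0.05 (limma), 3 of the 10 were lower, and the share of all genes at that threshold was not counted. Every KO saline array lay below every WT saline array for 5 of the 10, as it did for 19.2% of all genes, but on the slide that held both groups the median difference of the 10 was -0.13. The Cd3g call was lost on leaving out any one array of the KO or WT saline groups at 8 h (adjusted p of 0.058 to 0.148). The KO saline arrays are those with the low ratio of bright to dim probes, whose part in these differences was not tested. WT saline replicates 34 and 36 at 4 h were the highest of their group for Cd3d, Cd3g, Cd5 and Cd6.

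In the interaction at 4 h, 2 of the 10 genes were called, both higher, a share near that of all genes. The KO effect minus the WT effect was 0.95 for Cd5 (SE 0.282, adjusted p = 0.0268) and 1.05 for Cd6 (SE 0.282, adjusted p = 0.0171) by limma's interaction term, against 13.2% of all genes called higher and 3.12% called lower. Cd3d and Cd3g were at 0.79 and 0.80 and not called (adjusted p = 0.0676 and 0.0530), and Cd247, Lck and Zap70 were at 0.01, 0.01 and 0.00. The levels show where this lies: under dex the genotypes differed by -0.09 for Cd5 and -0.05 for Cd6, and under saline by -1.03 and -1.10. The KO saline arrays are those with the low ratio of bright to dim probes, and their part in the interaction was not tested. On the second Cd6 probe the interaction was 0.42 (adjusted p = 0.628). Cd5's call was lost without KO dex replicate 58, KO saline replicate 44, WT dex replicate 49 or 52, or WT saline replicate 34 or 36, all at 4 h (adjusted p of 0.0513 to 0.0781), and with slide as a block (0.0738), while the Cd6 call passed with each array left out in turn. In the authors' deposited table the values were 0.96 for Cd5 and 0.98 for Cd6, and neither passed (adjusted p = 0.0778 and 0.0593, limma), nor did they with normexp background correction (0.0647 and 0.0531) or in a fit of the 4 h groups alone (0.0924 and 0.0806). At 8 h no interaction was called by limma and none passed an unadjusted p of 0.05, against 4.25% of all genes called higher and 1.55% called lower, and the 10 values lay between -0.28 and 0.40.

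The effect of dexamethasone was compared between the times within each genotype. In KO lungs the 8 h effect minus the 4 h effect was -1.05 (SE 0.282, adjusted p = 0.0402) for Cd6, the only gene of the 10 called, against 1.84% of all genes called lower and 1.21% called higher, and -0.99 for Cd5, which was not called (adjusted p = 0.0568). The Cd6 call was lost in 12 of the 29 fits that left out an array (adjusted p up to 0.115). In WT lungs none was called by limma and none passed an unadjusted p of 0.05, against 3.11% of all genes called lower and 2.84% called higher, and the median was -0.28. Between 8 and 4 h under saline (8 h minus 4 h), none of the 10 was called in KO or WT lungs by limma. Of all genes, 0.3 and 0.469% were called lower and 0.782 and 0.808% higher. At an unadjusted p under 0.05 (limma), 1 of the 10 was higher in each genotype, and the share of all genes at that threshold was not counted. The levels under dex at 8 and 4 h were not compared by a test of their own.

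Many other genes of the T cell were lower under dex too. These lists were put together with earlier results of these data known. Beside their counts stand the shares of all genes tested, in KO lungs at 8 and 4 h and WT lungs at 8 and 4 h. Those were 17.7, 17.8, 14.3 and 22.2% called lower, and 24.9, 24.7, 9.22 and 14.4% called higher. Of 20 tested genes of receptor signalling, 16 were called lower in KO lungs at 8 h, 14 in KO lungs at 4 h, 17 in WT lungs at 8 h and 15 in WT lungs at 4 h. Called higher were 0, 1, 0 and 0, and the medians were -0.78, -0.53, -1.003 and -0.88. Rasgrp1, which activates Ras in T cells, changed by -1.46, -1.12, -1.46 and -1.49 in these comparisons. The adaptor Skap1 changed by -1.20, -0.78, -1.34 and -1.23, and the phosphatase Ptpn6, which other leukocytes share, by -0.73, -0.83, -0.95 and -1.24. All of these were called.

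Of 12 tested surface and costimulation genes, 10, 7, 10 and 9 were called lower in the same order of comparisons, with medians of -0.96, -0.63, -1.04 and -0.89. Thy1, a surface protein of mouse T cells, changed by -1.19, -0.81, -1.44 and -1.06, the costimulatory receptor Cd27 by -1.42, -1.24, -0.91 and -1.17, Cd96 by -1.63, -1.01, -1.47 and -1.18, and Ptprcap, a protein bound to CD45, by -1.01, -0.87, -1.54 and -1.42. Of 13 transcription factors, 6, 5, 6 and 6 were called lower and 1, 1, 0 and 1 higher, with medians of -0.59, -0.56, -0.33 and -0.33. Those called higher, named after their values were seen, were Zbtb7b in KO lungs at 8 h (0.22) and Tox at 4 h in KO lungs (0.68) and WT lungs (0.47). Bcl11b, which keeps T cell identity, changed by -1.58, -1.14, -1.52 and -1.33, and Tbx21, the T-bet of effector T and NK cells, by -2.07, -1.93, -1.93 and -1.86. Ets1 changed by -0.94, -1.02, -0.56 and -0.93, all called, and Ikzf1 by -0.82, -0.28, -1.17 and -1.18, of which -0.28 did not pass (adjusted p = 0.208).

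Of 14 homing and survival genes, 10, 9, 10 and 9 were called lower and 1, 3, 0 and 1 higher. Ccr7, the receptor that guides T cells to lymph nodes, changed by -2.21, -1.46, -2.08 and -1.63, Cxcr3 by -1.06, -0.94, -1.47 and -1.21, and Itgb7 by -1.09, -0.91, -1.46 and -1.29. Of 11 genes known to be induced by glucocorticoids in T cells, 8, 10, 3 and 8 were called higher and 1, 1, 2 and 1 lower; lung cells of other types also carry these genes. Tsc22d3, which encodes the glucocorticoid-induced leucine zipper, changed by 0.57, 1.70, 0.47 and 1.54, all called.

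Most markers of NK and B cells were lower under dex too. Of the NK markers, Ncr1, the NKp46 receptor, changed by -2.93, -2.66, -2.69 and -3.26, and of the B cell markers Ms4a1, which encodes CD20, by -2.69, -2.33, -3.08 and -3.46, in the same order of comparisons. NK genes were called lower for 10 of 10 in every comparison, with medians of -2.18, -1.95, -2.37 and -1.72, and B cell genes for 8 of 10 in every comparison, with medians of -2.23, -1.76, -2.41 and -2.63. The B cell gene Cr2, named after its value was seen, was called higher in WT lungs at 4 h (1.14, adjusted p = 0.00462, limma). The summed relative signal of the 10 NK genes was 85.7 to 129% in KO dex lungs, against 310 to 579% in KO saline lungs at 8 h, and 79.5 to 102% in WT dex lungs, against 417 to 471% in WT saline lungs. At 4 h it was 138 to 269% in KO dex lungs, against 415 to 580% in KO saline lungs, and 129 to 354% in WT dex lungs, against 475 to 642% in WT saline lungs. For the 10 B cell genes it was 185 to 387% in KO dex lungs, against 678 to 872% in KO saline lungs at 8 h, and 187 to 360% in WT dex lungs, against 703 to 1040% in WT saline lungs. At 4 h it was 256 to 371% in KO dex lungs, against 673 to 1060% in KO saline lungs, and 191 to 369% in WT dex lungs, against 1010 to 1450% in WT saline lungs. No pair of groups overlapped for either sum.

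Of 10 genes shared by most leukocytes, 9, 6, 9 and 8 were called lower and 0, 1, 0 and 0 higher, with medians of -0.70, -0.59, -0.95 and -0.85. Ptprc, which encodes CD45, changed by -0.87, -0.54, -1.05 and -1.17. Of 10 lung epithelial genes, 1, 1, 1 and 2 were called lower and 4, 4, 1 and 0 higher, with medians of 0.20, 0.03, 0.00 and 0.01. NK cells share Cd247, Zap70 and Lck with T cells, and their part in the fall of these genes was not tested. Of 5 tested thymocyte genes, 2, 1, 2 and 2 were called lower. These were Ccr9 and Cd1d1, named after their values were seen, of which Cd1d1 was at -0.27 and not called in KO lungs at 4 h, and neither is limited to thymocytes. Ptcra, the pre-T alpha chain of thymocytes, had changes of 0.08, 0.69, -0.30 and 0.21 and was called in none.

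Other leukocyte and lung lists were less uniform, and the genes named from them here were chosen after their values were seen. Of all genes tested, 17.7, 17.8, 14.3 and 22.2% were called lower and 24.9, 24.7, 9.22 and 14.4% higher in the same order. Of 8 tested dendritic cell genes, 6, 4, 4 and 6 were called lower, with medians of -0.85, -0.74, -0.83 and -0.85; Batf3, Ccr9 and Siglech, a receptor of plasmacytoid dendritic cells, were among them in all 4. Of 9 tested macrophage and monocyte genes, 3, 3, 4 and 4 were called lower and 2, 1, 0 and 2 higher. The monocyte chemokine receptors Ccr2 and Cx3cr1 and the growth factor receptor Csf1r were lower in all 4, Ccr2 by -1.41, -2.64, -0.97 and -2.40 and Cx3cr1 by -1.80, -3.002, -1.37 and -2.59. Ly6c2, of the same list, went the other way, at 0.58, 0.56, 0.21 and 0.48. It was called higher in all but WT lungs at 8 h (adjusted p = 0.124, limma). Of 10 neutrophil genes, 2, 0, 1 and 1 were called lower (from Csf3r and Mmp9) and 1, 1, 0 and 2 higher (from Il1r2 and Lcn2). Of 7 tested genes of gamma-delta and innate-like lymphocytes, Blk and Klrg1, which B and NK cells also carry, were called lower in each comparison. Called higher were 1, 0, 1 and 1, and the medians lay between -0.41 and -0.07. Of 10 endothelial and stromal genes, 4 were called lower in each, the endothelial genes Cldn5, Pecam1 and Tek in all 4, and 2, 1, 1 and 1 higher. The medians of this list lay between -0.41 and -0.10.

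In the saline comparison of genotypes at 4 h, where Cd3d, Cd3g, Cd5 and Cd6 were lower in KO lungs, 5 of 12 surface genes, 5 of 20 receptor signalling genes, 4 of 13 transcription factors and 5 of 14 homing genes were called lower, and 2 of the 20 receptor signalling genes were called higher. Of the 10 NK genes none was called, of the 10 B cell genes 1 was lower, and of the 10 genes shared by leukocytes 2 were lower, beside 18.6% of all genes called lower and 5.98% called higher. No test was made of whether any of these shares differs from that of all genes.

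**Figure D5:**
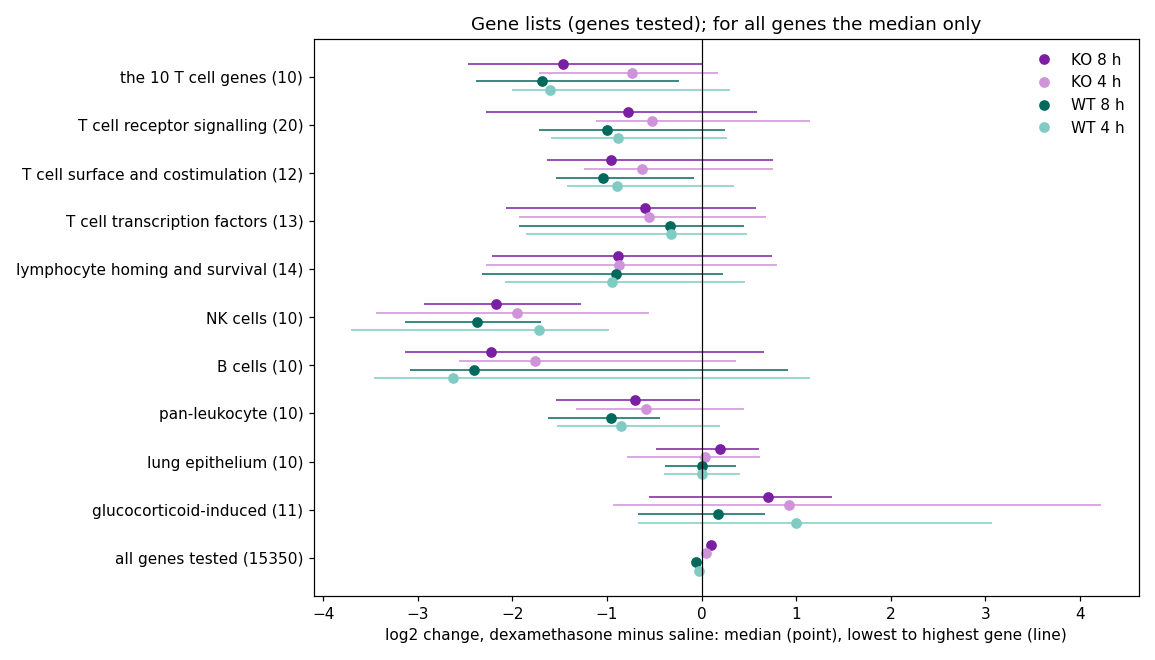
Median log2 change (dex minus saline, points) and the range from the lowest to the highest gene (lines) of the 10 T cell genes and of other gene lists in KO and WT lungs at 8 and 4 h, with the number of genes tested in brackets and only the median for all genes. The medians of the lymphocyte lists lie below 0, that of the lung epithelial list around 0 and that of the glucocorticoid-induced list above 0, and several of the ranges cross 0.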

How the data were processed

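The arrays were Agilent mouse 1-colour arrays of Cy3-labelled total lung RNA, 1 sample per array. The authors deposited each array's scanner output, whose processed signal is a background-corrected spot intensity from Agilent's Feature Extraction software, whose version is 10.7.3.1 per the file headers and 10.6 per the submitters' processing notes. They also deposited a table of processed log2 values per probe, whose scale and centring are not stated, and which served as an alternative. Here, spots flagged as outliers were left out, spots of a probe were averaged, and each log2 processed signal was taken relative to the 75th percentile of its array (relative signal is the linear form, in percent). Of 41174 probes, 33935 were kept, those well above background on 3 or more arrays of any group. The brightest kept probe stood for its gene, named through its accession and RefSeq, which left 15350 genes. Limma 3.58.1 in R 4.3.3 fitted 8 group means (lmFit, eBayes), with Benjamini-Hochberg adjustment over all genes and a threshold of 0.05. For 433 genes a value was missing on at least 1 array, and their fits used the remaining arrays. The fit was tested on simulated data with known changes. The members and lists were chosen with earlier results of these data known. Besides the 10 genes, the text names up to 4 tested genes of each list by their p in WT lungs at 4 h, the 8 genes nearest to Cd3e, and Klf15, with exceptions said where they occur. Some genes that this rule picks are not reported here.

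No array had a saturated spot, 0.101 to 0.908% of spots were flagged as outliers, and arrays of a group correlated at 0.97154 to 0.99134. Comparisons were dex against saline within genotype and time, KO against WT within treatment and time, their interactions, and 8 h against 4 h. Slides were taken from the slide codes in the file headers and numbered 1 to 8, and the tabulation of Cd3e by slide was made after its values were seen. Alternatives covered scaling, the filter, the choice of probe, background correction, the deposited table, slide, the variance model, weights, the groups in the fit and each array left out. Promoter sequences were copied from a RefSeq table of 32851 promoters.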

Additional observations from a re-analysis of the deposited data

Results flagged for a closer look

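Within groups of 4 arrays, Dixon's gap test at its 95% level was applied to the 10 T cell genes in 50 pairs of gene and group, of which 2 stood out, and chance alone marks about 1 in 20. Cd3e in WT dex lungs at 4 h had replicate 49 at -2.03 on the log2 relative scale, against -3.28 to -3.07 for the other 3 arrays, a gap of 0.835 of the group's range. That array lies on slide 2, on which all 4 arrays had a Cd3e signal of 19.7 to 24.5%. Lck in KO dex lungs at 4 h had replicate 59 at -2.09, against -2.60 to -2.56 for the other 3 arrays, a gap of 0.921 of the range. On the same array, all 10 genes lay above their group's mean.

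The dexamethasone effect differed between genotypes at 4 h for Cd5 (KO minus WT effect 0.95) and Cd6 (1.05) by limma's interaction term, where 13.2% of all genes were called higher. Neither passed in the authors' deposited table (adjusted p = 0.0778 for Cd5 and 0.0593 for Cd6, limma), with normexp (0.0647 and 0.0531) or in a fit of the 4 h groups alone (0.0924 and 0.0806). Cd5 also lost its call with slide as a block (0.0738) and on leaving out any one of 6 arrays (0.0513 to 0.0781), and Cd6 with the mean of its probes (0.0687). The KO saline arrays, which stand apart in the ratio of bright to dim probes, enter the interaction, and their part was not tested. The dexamethasone effect also differed between times in KO lungs for Cd6, by -1.05 (8 h minus 4 h effect). The second Cd6 probe had -0.27 in that last comparison and was not called (adjusted p = 0.924).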

How the results depend on the processing

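The counts of genes called lower under dex, 8 in KO lungs at 8 h, 7 in KO lungs at 4 h, and 8 in WT lungs at both times, stayed within 1.5 times under every alternative, as did the 4 called lower in KO saline lungs at 4 h. The count of 0 between genotypes under dex did not move. With slide as a fixed block Cd3e was also called in KO lungs at 8 h (-0.29, adjusted p = 0.0358, limma). Cd6 in KO lungs at 8 h turned to 0.0835 on its dimmest probe and was not called.

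The smaller counts moved. For KO against WT saline lungs at 8 h, the 1 gene called lower became 3 with array weights (with 1 higher), 2 with slide as a fixed or random block, and 0 in the authors' deposited table, with the mean of a gene's probes, median scaling, no filter, normexp or quantile normalization. The 2 genes called in the interaction at 4 h became 4 with array weights, 1 with the dimmest probe, the mean of probes or slide as a fixed block, and 0 in the authors' deposited table, with normexp or in a fit of the 4 h groups alone. The 1 gene whose effect differed between times in KO lungs became 2 with array weights, in a fit of those groups alone, with slide as a random block, with trend and robust variance or with probes well above background on all arrays, and 0 in the authors' deposited table, with the dimmest probe, the mean of probes, median scaling, normexp or slide as a fixed block. Between times under saline in KO lungs, 1 gene was called higher with array weights. Relative to the median of the 10 genes in place of the CD3 chains, 7 genes differed in KO lungs at 4 h, against 4. The cause of these moves was not tested.

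Leaving out each array in turn gave 6 to 7 genes in KO lungs at 4 h under dex, 0 to 1 for saline at 8 h, 1 to 4 for the interaction at 4 h and 0 to 2 between times in KO lungs. Of the results for single genes, 5880 kept their call or moved by less than the spread, 62 lost and 37 gained a call, 30 values moved and 1 turned; sign changes of values called in neither setting were not counted. The reference of Cd3d and Cd3g, the fit without the 7 KO saline arrays and the second Cd6 probe alone were chosen after seeing the data. No paired analysis was possible because the groups share no replicate numbers, and slide was the only block fitted.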
